A study of Mus musculus with 2 samples.

Results

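Released catecholamines are cleared by carriers in the cell membrane, and those in the cytosol are broken down by enzymes. The RNA of 7 genes of these steps was followed in the mouse adrenal gland. They were matched by gene symbol among 55536 genes, and all 7 were found. They are the monoamine oxidases Maoa and Maob, the reuptake carriers Slc6a2 and Slc6a3, and the organic cation and monoamine carriers Slc22a3, Slc22a2 and Slc29a4. Total RNA was sequenced from 2 adrenal libraries of 1 group. The animals were adult females aged 8 to 10 months from a cross of 5xFAD with CAST, the first a transgenic model of Alzheimer's disease in which the neuronal Thy1 promoter drives the transgenes, the second a wild-derived strain. The labels do not say whether either animal carried the transgenes. They number the libraries as biological replicates 2 and 1, here mouse 2 and mouse 1, but give both a single donor identifier, so the spread between them may be technical.

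The adrenal medulla makes and stores adrenaline and noradrenaline, and the cortex around it makes steroid hormones. Monoamine oxidases sit on the outer mitochondrial membrane and turn amines into aldehydes with the help of a bound flavin, and the aldehydes are then oxidised to acids or reduced to glycols. Maoa acts best on noradrenaline and serotonin, and Maob on phenylethylamine. Slc6a2, the noradrenaline transporter, returns the amine to sympathetic nerve endings and chromaffin cells. Slc6a3 does this for dopamine in dopamine neurons. Slc22a3, Slc22a2 and Slc29a4 have a lower affinity and a larger capacity, and Slc22a3 and Slc29a4 take up monoamines in cells outside nerve endings.

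The oxidases are related in sequence. A stretch of each coding sequence is shown around the cysteine that holds the flavin, a residue known from the human and bovine enzymes. Each stretch is a short part and does not stand for the whole coding sequence, whose identity is given after it. Both stretches are given 5′ to 3′ on the coding strand, from the GENCODE M21 transcripts on mm10, with the cysteine codon in capitals. It was codon 406 of Maoa-201, in chrX:16682210-16682296 on the plus strand, and codon 397 of Maob-201, in chrX:16716388-16716474 on the minus strand. Each stretch lies within 1 exon.
Maoa-201: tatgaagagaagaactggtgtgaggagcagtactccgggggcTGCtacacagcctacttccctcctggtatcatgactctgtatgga
Maob-201: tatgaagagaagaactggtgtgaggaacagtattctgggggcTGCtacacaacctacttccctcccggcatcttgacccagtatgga
The stretches were identical at 78 of 87 bases. Over the aligned coding sequences, Maoa-201 and Maob-201 were identical at 71.8% of 1537 bases, and the longest run they shared was 35 bases. Slc6a2-202 and Slc6a3-201 were identical at 70.3% of 1829 aligned coding bases, with a longest shared run of 23 bases. Slc22a3-201 and Slc22a2-201 were identical at 61.9% of 1613, with a longest shared run of 15 bases. The deposited posterior SD of the gene count, which measures how far reads could be assigned to another gene, was 0 counts for all 7 genes in both libraries, as for 79.2% of the 17666 genes that averaged 10 or more expected counts.

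The RefSeq promoter table (GRCm38.p6) held 5 of the 7 genes, not Maob or Slc6a2. The 250 bases before the start site are shown for the most abundant gene, Maoa, for both carriers outside the reuptake family that had a mean above 1 TPM, and for the near-silent Slc6a3, so that their start regions can be set side by side. Capitals mark GGGCGG, the GC box, on either strand, and TATAAA on either strand. The windows are chrX:16619448-16619697 (plus strand) for Maoa, chr5:142701851-142702100 (plus strand) for Slc29a4, chr17:12507705-12507954 (minus strand) for Slc22a3, and chr13:73536497-73536746 (plus strand) for Slc6a3.
Maoa: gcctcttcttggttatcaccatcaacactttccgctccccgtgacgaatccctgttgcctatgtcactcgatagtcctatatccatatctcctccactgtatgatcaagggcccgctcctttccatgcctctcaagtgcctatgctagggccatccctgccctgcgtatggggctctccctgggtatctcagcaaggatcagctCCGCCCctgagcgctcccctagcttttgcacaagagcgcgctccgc
Slc29a4: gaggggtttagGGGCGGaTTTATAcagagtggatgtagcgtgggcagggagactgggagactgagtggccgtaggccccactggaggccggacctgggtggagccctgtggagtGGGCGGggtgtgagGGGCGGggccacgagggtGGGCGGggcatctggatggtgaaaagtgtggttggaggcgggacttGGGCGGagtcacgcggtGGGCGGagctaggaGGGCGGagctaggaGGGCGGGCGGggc
Slc22a3: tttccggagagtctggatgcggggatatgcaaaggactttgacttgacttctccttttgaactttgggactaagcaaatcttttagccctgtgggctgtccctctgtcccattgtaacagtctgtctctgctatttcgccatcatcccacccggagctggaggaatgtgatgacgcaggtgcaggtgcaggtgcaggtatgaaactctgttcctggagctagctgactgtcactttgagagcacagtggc
Slc6a3: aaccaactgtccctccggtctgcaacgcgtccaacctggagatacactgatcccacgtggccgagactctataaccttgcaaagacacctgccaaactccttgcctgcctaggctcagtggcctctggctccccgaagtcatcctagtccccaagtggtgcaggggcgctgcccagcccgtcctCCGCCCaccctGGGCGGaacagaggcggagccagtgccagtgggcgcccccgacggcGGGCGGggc
The GC box occurred 9 times in the Slc29a4 window, overlapping matches included, 3 times in that of Slc6a3 and 1 time in that of Maoa, and did not occur in that of Slc22a3 or Slc22a2. Of 32851 promoter windows of the same length, 32.7% held at least 1 GC box and 4.09% held at least 4. TATAAA was found on the reverse strand of the Slc29a4 window and in none of the other 4, against 12.4% of all windows. G and C made up 68.8% of the Slc29a4 window, 66% of that of Slc6a3, 56.8% of that of Maoa, 51.6% of that of Slc22a2 and 51.2% of that of Slc22a3, with a median of 52.4% over all windows. A match is a description of the letters and not evidence of a binding site.

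Depth, summed over genes, was 32192201 expected counts in mouse 2 and 36558609 in mouse 1. At these depths a count of 0 allows up to 0.0932 CPM (counts per 1e6) in mouse 2 and 0.0821 in mouse 1, taken as 3 counts. These limits and all intervals cover counting error only. Chromaffin genes were well measured, with 11 of 11 markers at 1 TPM (a level scaled to transcript length and to the whole library) or more in both mice, as were cortex genes, with 7 of 7. Kidney markers were at or near 0, with 0 of 9 at 1 TPM and 5 of them at 0 counts in both mice. Fat markers, at 6 of 7, were present in both mice.

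Of the 7 genes, 4 reached 1 TPM in both mice: Maoa, Maob, Slc6a2 and Slc29a4. Slc22a3 did so in mouse 2 alone, and Slc6a3 and Slc22a2 were at or below 0.09 TPM in both mice. Over all nuclear protein-coding genes, 54.1% of 22015 reached 1 TPM in both mice. By mean TPM the order was Maoa, Slc29a4, Maob, Slc6a2, Slc22a3, Slc22a2 and Slc6a3. The mean levels of Maoa and Slc29a4 lay closer than the SD of Maoa. Maoa was the higher in both mice, though in mouse 1 only by 7.71 against 7.49 TPM. The values of Slc29a4 and Maob overlapped, and those of Slc22a2 and Slc6a3 rested on 6 counts or fewer in either mouse. The order within these last pairs was therefore not resolved. Slc6a2 lay below Maob and above Slc22a3 in both mice with no overlap.

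**Figure D1:**
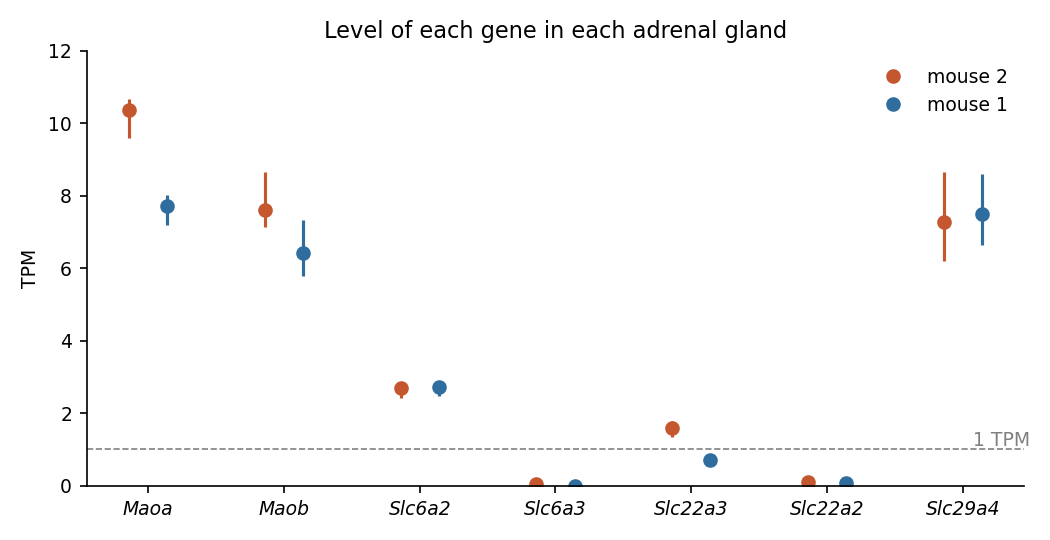
Level of each of the 7 genes in TPM (linear axis), with mouse 2 in orange on the left and mouse 1 in blue on the right of each pair. Points are deposited TPM and lines join the deposited lower and upper bounds. Maoa reached 10.36 TPM in mouse 2 and 7.71 TPM in mouse 1, and Slc22a3 lay above the dashed line at 1 TPM in mouse 2 and below it in mouse 1.

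Maoa (ENSMUSG00000025037.6, chrX:16619698-16687818, plus strand) was the most abundant of the 7 genes. It had 1385 expected counts and 10.36 TPM in mouse 2, and 1277 counts and 7.71 TPM in mouse 1, a mean of 9.04 ± 1.87 TPM (SD, n = 2). The deposited bounds, whose level is not given in the sources used here, ran from 9.592 to 10.67 TPM in mouse 2 and from 7.181 to 8.014 TPM in mouse 1, so they did not overlap. Its TPM was higher than that of 72% of nuclear protein-coding genes in mouse 2 and of 69.1% in mouse 1. The annotation gives Maoa 1 transcript of 15 exons, which took all its counts.

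Maob (ENSMUSG00000040147.14, chrX:16709282-16817366, minus strand) lies tail to tail with Maoa, 21.46 kb away. It had 578 counts and 7.61 TPM in mouse 2, and 562 counts and 6.42 TPM in mouse 1, a mean of 7.02 ± 0.842 TPM (SD, n = 2). Its bounds ran from 7.147 to 8.642 TPM in mouse 2 and from 5.793 to 7.325 TPM in mouse 1, and overlapped. The level of Maoa was 1.36 times that of Maob in mouse 2 and 1.2 times in mouse 1, so the gene best known for noradrenaline was the higher in both, by 0.35 ± 0.13 on the log2 TPM scale (SD, n = 2). The deposited bounds of Maoa and Maob overlapped in mouse 1 but not in mouse 2. A second quantification of the same reads gave 1.27 times in mouse 2 and 1.2 times in mouse 1.

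Slc6a2 (ENSMUSG00000055368.14, chr8:92960079-93001667, plus strand) was the one reuptake carrier of the pair at a measurable level. It had 526 counts and 2.70 TPM in mouse 2, and 654 counts and 2.71 TPM in mouse 1, a mean of 2.71 TPM with an SD of 0.0071 TPM (n = 2). Its bounds, 2.421 to 2.872 TPM in mouse 2 and 2.466 to 2.874 TPM in mouse 1, were almost the same. The level was 1.07% of that of Th, the tyrosine hydroxylase that starts catecholamine synthesis, in mouse 2 and 1.13% in mouse 1. Slc18a1, the vesicular amine carrier of chromaffin cells, stood 4.27 times above Slc6a2 in mouse 2 and 4.11 times in mouse 1.

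Slc6a3 (ENSMUSG00000021609.6, chr13:73536747-73578672, plus strand) had 4 counts and 0.04 TPM in mouse 2 and 0 counts in mouse 1. The exact 95% Poisson interval ran from 1.09 to 10.2 counts in mouse 2 and from 0 to 3.69 counts in mouse 1, so the dopamine transporter was at the limit of detection. Slc22a2 (ENSMUSG00000040966.10, chr17:12584132-12628488, plus strand), an organic cation carrier best known in kidney tubules, had 6 counts and 0.09 TPM in mouse 2, and 5 counts and 0.07 TPM in mouse 1. Both genes fell short of a mean of 10 counts and were not compared between the mice.

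Slc22a3 (ENSMUSG00000023828.3, chr17:12418960-12507704, minus strand) differed most between the mice of the 3 carriers with enough counts to compare. It had 178 counts in mouse 2 (exact 95% Poisson interval 152.8 to 206.2) and 100 counts in mouse 1 (81.4 to 121.6). The TPM was 1.59 in mouse 2 and 0.72 in mouse 1, a mean of 1.16 ± 0.615 TPM (SD, n = 2), with bounds of 1.33 to 1.789 TPM in mouse 2 and 0.578 to 0.857 TPM in mouse 1. Neither the counts nor the bounds overlapped. On the opposite strand it overlaps Plg, with 3 counts in mouse 2 and 7 in mouse 1, and AC132106.1, with 0 and 1.

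Slc29a4 (ENSMUSG00000050822.11, chr5:142692512-142722490, plus strand), the plasma membrane monoamine carrier, was the most abundant carrier of the 5. It had 559 counts and 7.28 TPM in mouse 2, and 759 counts and 7.49 TPM in mouse 1, a mean of 7.39 ± 0.149 TPM (SD, n = 2). The bounds ran from 6.211 to 8.657 TPM in mouse 2 and from 6.643 to 8.603 TPM in mouse 1. Its TPM was 2.7 times that of Slc6a2 in mouse 2 and 2.76 times in mouse 1. Against Slc22a3 it was 4.58 times as high in mouse 2 and 10.4 times in mouse 1, so that pair kept its order but not its ratio.

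**Figure D2:**
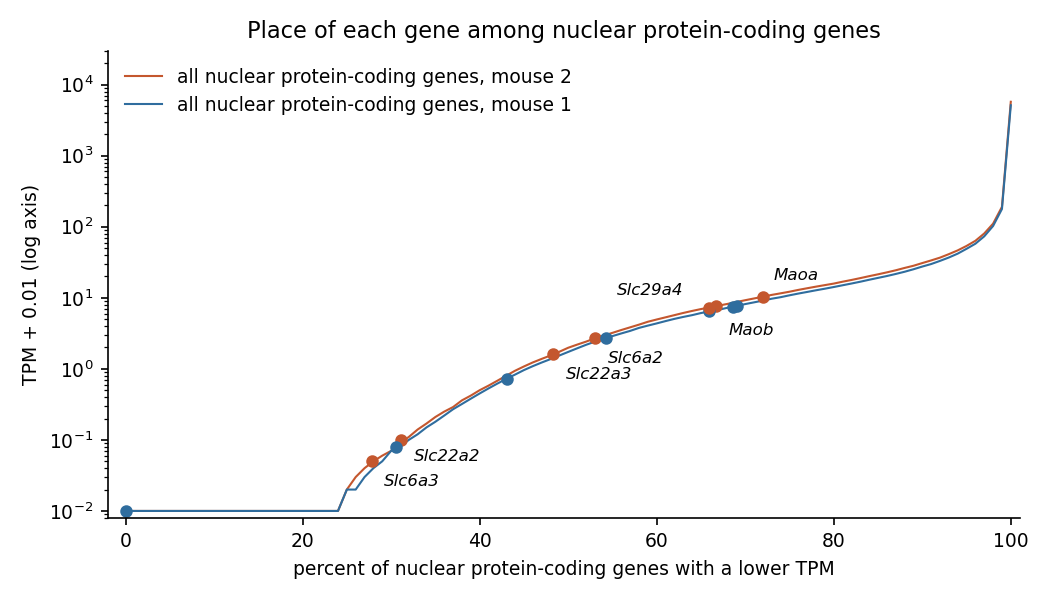
TPM plus 0.01 (log axis) against the percent of nuclear protein-coding genes with a lower TPM, with mouse 2 in orange and mouse 1 in blue. Lines are all 22015 such genes and points the 7 genes, each named beside its point for mouse 2. Maoa lay above 72% of genes in mouse 2 and 69.1% in mouse 1, while Slc6a3 lay at 0 in mouse 1.

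Counts were then compared between the mice, with 1 library on each side and therefore no test between animals. The log2 ratio of mouse 2 over mouse 1 was taken after TMM scaling, for the 5 genes that averaged 10 or more counts, with an exact 95% counting interval. None of the 5 was 2-fold apart, against a background over 17666 genes of 1.15% that were higher in mouse 2 by 2-fold or more and 1.81% that were lower by as much. The interval lay above 0 for 3 of the 5 and below 0 for 2, against 15.4% of all compared genes above 0 and 15.8% below. A counting interval narrows as counts rise, and the background reaches down to a mean of 10 counts. These shares were not matched for counts, so they do not show that the 5 differed more than other genes. The median ratio of the 5 was 0.17, against -0.0011 over all compared genes.

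Both oxidases were higher in mouse 2. Maoa had a log2 count ratio of 0.25 (counting interval 0.14 to 0.36), and 28.9% of genes had a larger absolute ratio. Maob had a ratio of 0.17 (0.0051 to 0.35), with a lower bound close to 0, and its interval included 0 with ERCC scaling. With no count filter its ratio fell from 0.1745 to 0.1691, a fall about as large as that bound. By TPM, which is scaled over each whole library, the log2 ratios were larger, at 0.43 for Maoa and 0.25 for Maob.

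Slc6a2 and Slc29a4 were lower in mouse 2 by counts. The log2 count ratio of Slc29a4 was -0.31 (-0.47 to -0.15), and 23.5% of genes had a larger absolute ratio. That of Slc6a2 was -0.18 (-0.35 to -0.012), and with total count scaling its interval included 0. By TPM the mice were nearly equal, with a log2 TPM ratio of -0.041 for Slc29a4 and -0.0053 for Slc6a2. TPM is scaled over each whole library, in which 32.3% of TPM in mouse 2 and 29.5% in mouse 1 fell on nuclear protein-coding genes, whereas TMM scaling of counts centres the bulk of genes near 0. TPM also divides by an effective length, which for Slc29a4 was 2338 bases in mouse 2 and 2489 bases in mouse 1, beside a larger share of its short transcript Slc29a4-202 in mouse 2. For Slc6a2 it was 5924 bases in both mice. In whole tissue, fewer cells of a type and less RNA per cell cannot be told apart.

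Slc22a3 had the largest ratio of the 5, with 0.95 on the log2 count scale (0.61 to 1.33), or 1.94-fold higher in mouse 2. Of compared genes, 3.5% had a larger absolute ratio. The gene lay just inside the 2-fold limit, and on the TPM scale its log2 ratio was 1.14. The log2 count ratio was just past 1 with total count scaling and was 1.04 with the second quantification.

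Markers of other cell types moved between the mice too. All 7 fat cell markers (Adipoq, Plin1, Cfd, Fabp4, Ucp1, Cidea and Lep) had ratios above 0, with a median of 0.61 and a range of 0.33 to 0.79, and the interval lay above 0 for 6. Their summed level was 1942 TPM in mouse 2, against 1212 in mouse 1. The 11 chromaffin markers had a median ratio of -0.14, with the interval below 0 for 7 and above 0 for none, and summed to 2331 TPM in mouse 2 and 2463 TPM in mouse 1. Slc6a2 and Slc29a4 thus had ratios of the same sign as the chromaffin median and within the chromaffin range. Slc22a3, Maoa and Maob had the sign of the fat median. By point value Slc22a3 lay above the fat range, and Maoa and Maob lay below it. The counting interval of each of these genes overlapped that range, so their place relative to it was not resolved. Medians were also below 0 for cortex, smooth muscle and neuron markers, and above 0 for endothelial and Schwann markers, among others. A shared sign therefore does not single out a cell type. The part of the cell mixture in these ratios was not tested.

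**Figure D3:**
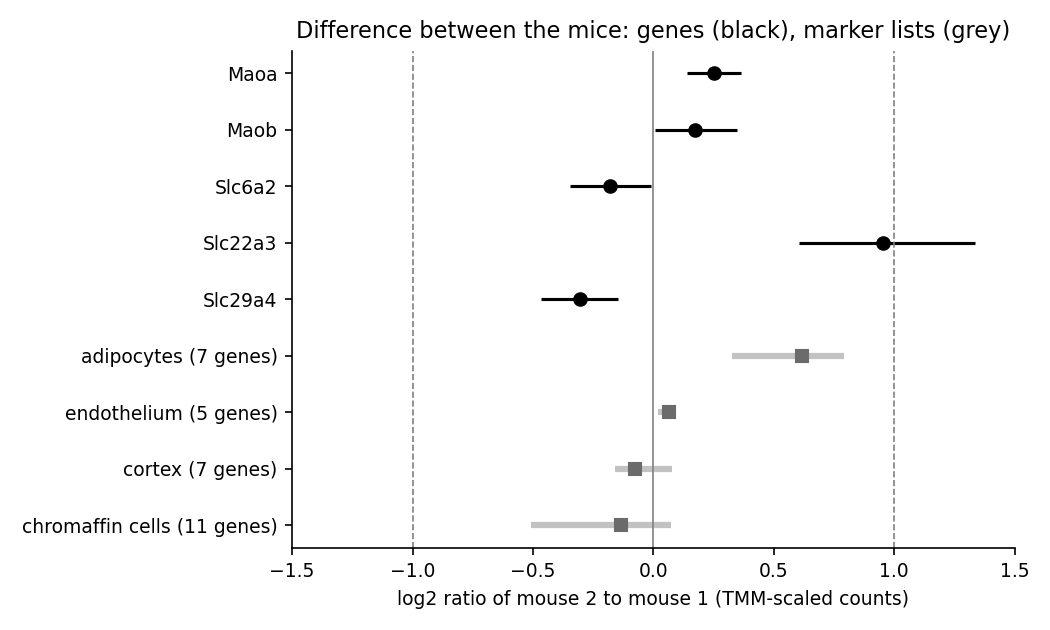
Log2 ratio of mouse 2 to mouse 1 from TMM-scaled counts, with 0 as a solid line and 2-fold limits dashed. Black points are the 5 compared genes with their 95% counting intervals, and grey squares and bars are the median and range over the markers of a cell type. Slc22a3 lay at 0.95, near the upper dashed line, and the fat cell markers had a median of 0.61.

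Slc22a3 and Slc22a2 lie head to head, their starts 76.43 kb apart, in the imprinted Igf2r cluster. In mouse placenta the long RNA Airn, transcribed from the paternal copy, silences Slc22a2, Slc22a3 and Igf2r on that copy. Airn had 53 counts and 1.80 TPM in mouse 2, and 111 counts and 3.21 TPM in mouse 1, a log2 count ratio of -0.91 (-1.43 to -0.45). Its transcript overlaps Igf2r, and whether strand was used in counting is not given in the sources used here. Igf2r, a receptor that clears insulin-like growth factor, averaged 23.0 ± 1.8 TPM (SD, n = 2), with a ratio of -0.032 (-0.079 to 0.015). Of the 5 neighbours, 2 reached 1 TPM in both mice, Igf2r and Airn. Airn was thus lower and Slc22a3 higher in mouse 2, with no allele-specific counts analysed here, and a link between the ratios was not tested.

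Maoa has 1 annotated transcript. For Slc22a3, Slc22a3-201 took 100% of the gene in both mice by the main estimate, while the posterior estimate gave 6.02% in mouse 2 and 6.22% in mouse 1 to Slc22a3-202, a decay target, with a posterior SD of 10.1 counts in mouse 2 and 5.57 counts in mouse 1. For Maob, the coding transcript Maob-201 took 100% in mouse 2 and 89.2% in mouse 1, where Maob-202, annotated as a target of nonsense-mediated decay, took 9.95% on 21.9 counts. In the second quantification Maob-201 took 87.2% in mouse 2 and 83% in mouse 1, and another decay target, Maob-203, took 12.8% in mouse 2 and 3.42% in mouse 1. Maob-202 took 12.5% in mouse 1 there, so it was the main minor transcript of that mouse in both quantifications. Maob-203 had no counts in the first quantification in either mouse, and Maob-201 led in both.

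For Slc6a2, Slc6a2-202 took 90.8% in mouse 2 and 90.5% in mouse 1, against 63.6% in mouse 2 and 66.3% in mouse 1 in the second quantification. It shares its whole coding sequence of 1854 bases, and 5904 bases in all, with Slc6a2-201, and the 2 differ only before the coding sequence. The posterior SD of the transcript count, 61.8 in mouse 2 and 73.8 in mouse 1, exceeded the 49.7 and 63.8 counts given to Slc6a2-201, so the split between these start regions was poorly resolved while the gene total was not.

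For Slc29a4, Slc29a4-201 took 85.3% in mouse 2 and 91.6% in mouse 1. The remaining share went to Slc29a4-202, a transcript of 406 bases, on 10.8 counts in mouse 2 and 7.82 counts in mouse 1, since a share of TPM is counted per length. The second quantification gave Slc29a4-201 96.9% in mouse 2 and 100% in mouse 1. For Slc22a2, all counts went to Slc22a2-201 in mouse 2 and to Slc22a2-202 in mouse 1, on 6 and 5 counts.

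**Figure D4:**
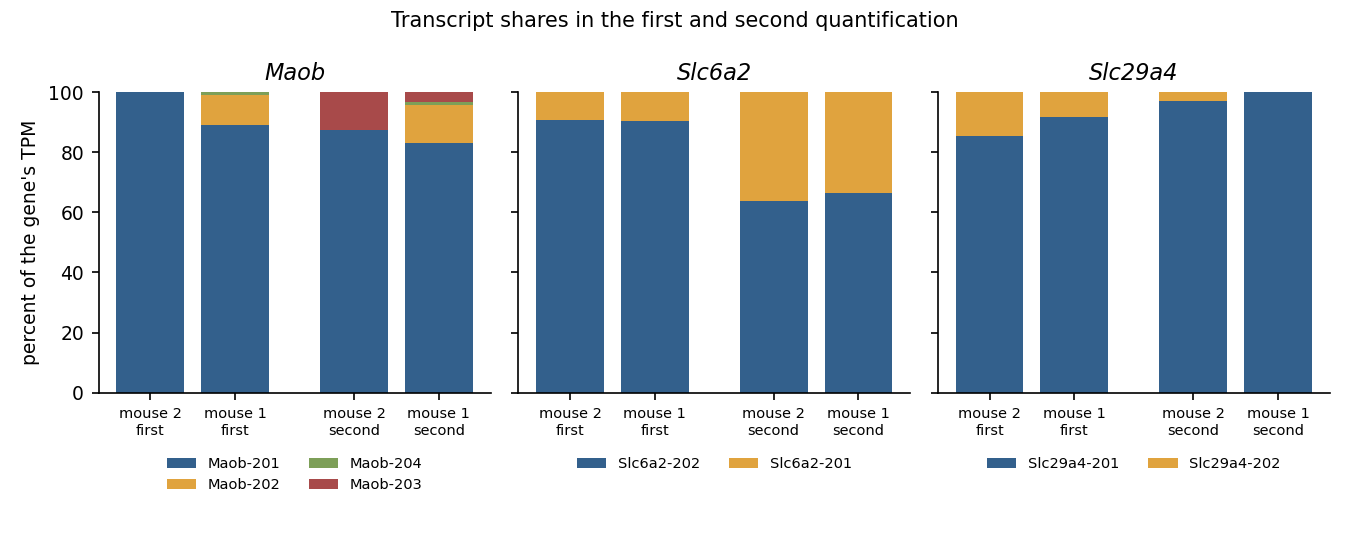
Percent of each gene's TPM (linear axis) given to each of its transcripts, for Maob, Slc6a2 and Slc29a4. In each panel the left bar of each pair is mouse 2 and the right bar mouse 1, from the first and the second quantification, and Slc6a2-202 stood at 90.8% and 90.5% in the first and at 63.6% and 66.3% in the second.

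The second quantification, made straight from the reads, placed all 7 genes within 2-fold of the first on the scale of TPM plus 0.1 in both mice. It gave Maoa 9.42 TPM in mouse 2 and 7.25 TPM in mouse 1, and Maob 7.44 TPM in mouse 2 and 6.06 TPM in mouse 1. Slc6a2 had 2.50 TPM in mouse 2 against 2.51 TPM in mouse 1. Slc22a3 had 1.52 TPM in mouse 2 against 0.655 TPM in mouse 1. Slc29a4 moved most of the 5, to 5.99 TPM in mouse 2 and 6.47 TPM in mouse 1, log2 differences from the first of -0.28 in mouse 2 and -0.21 in mouse 1. Over 13524 genes that averaged 1 TPM or more, the median difference was -0.06 in mouse 2 and -0.053 in mouse 1. In this quantification Maob was above Slc29a4 in mouse 2 and below it in mouse 1, as in the first. By mean TPM their order was reversed, with Maob at 6.75 TPM above Slc29a4 at 6.23 TPM in the second.

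The carriers were then placed within their gene families by mean TPM. Slc6a2 ranked 5 of 19 Slc6 genes by mean TPM, of which 8 reached 1 TPM in both mice. Above it were Slc6a6, the taurine carrier, at 159.6 ± 21.04 TPM, and Slc6a8, the creatine carrier, at 29.8 ± 0.304 TPM (SD, n = 2). Slc6a4 at 17.5 ± 1.99 TPM and Slc6a9 at 5.83 ± 1.71 TPM were also above it (SD, n = 2). Slc6a3 ranked 16. Slc22a3 ranked 8 and Slc22a2 ranked 10 of 25 Slc22 genes, of which 7 reached 1 TPM in both mice, led by Slc22a17 at 14.6 ± 1.27 TPM and the carnitine carrier Slc22a5 at 11.6 ± 1.35 TPM. Slc29a4 ranked 3 of 4 Slc29 genes, below the nucleoside carriers Slc29a1 at 48.4 ± 2.34 TPM and Slc29a3 at 21.7 ± 0.566 TPM. Ranks of close neighbours were not resolved. Slc6a15 was above Slc6a2 in mouse 2, at 2.80 against 2.70 TPM, and below it in mouse 1, at 2.36 against 2.71 TPM. Slc22a3 was above Slc22a18 in mouse 2, at 1.59 against 1.18 TPM, and below it in mouse 1, at 0.72 against 1.20 TPM.

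**Figure D5:**
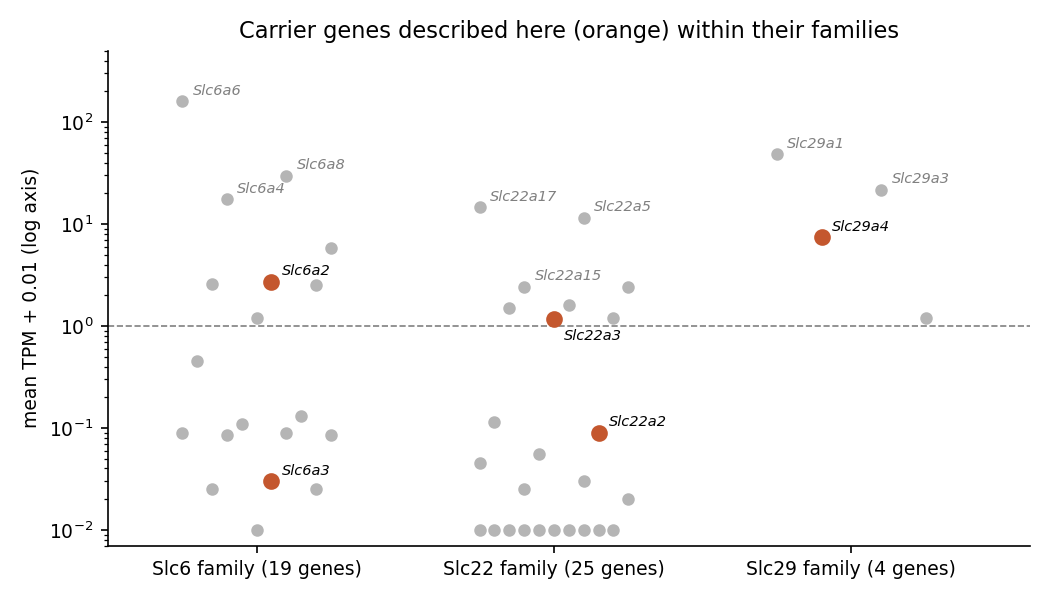
Mean TPM plus 0.01 over both mice (log axis) of the Slc6, Slc22 and Slc29 genes matched by symbol, with the 5 carriers in orange and the other genes in grey. The dashed line marks 1 TPM, and sideways position within a family has no meaning. Slc29a4 and Slc6a2 lay above the line, and Slc22a2 and Slc6a3 far below it.

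Of 12 other carriers, of monoamines, organic cations or the same gene families, 9 reached 1 TPM in both mice. The 12 include the nucleoside carriers Slc29a1 and Slc29a3, and Slc29a2 of the same family. Slc6a4, the serotonin reuptake carrier, was more abundant than Slc6a2, with 16.12 TPM in mouse 2 against 18.94 TPM in mouse 1, with a log2 count ratio of -0.38 (-0.49 to -0.27). Platelets and mast cells also carry Slc6a4 or serotonin, and of their 6 markers 2 reached 1 TPM in both mice. Over all 6 the summed level was 5.52 TPM in mouse 2, against 5.01 in mouse 1. The cell source of Slc6a4 was not tested. Among the 10 carriers compared, the interval lay above 0 for 1 and below 0 for 4, with a median of -0.069. Slc29a1 and Slc29a3 were among the 4 below 0. The 1 above was Slc22a4, named after its values were seen, at 0.85 (0.51 to 1.22).

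Of 15 enzymes listed for metabolism after the oxidase, 13 reached 1 TPM in both mice. The highest were the alcohol dehydrogenase Adh1 at 2212 ± 40.1 TPM, the mitochondrial aldehyde dehydrogenase Aldh2 at 654 ± 65.8 TPM and the aldehyde reductase Akr1a1 at 259.6 ± 11 TPM (SD, n = 2 each). These 3 were far more abundant than Maoa and Maob, while Aldh1a3, Aldh3a1 and Sult1d1, named after their values were seen, were below both at 4.77, 0.105 and 0.005 TPM on average. Whole tissue does not show whether the same cells hold the listed enzymes and the oxidases. The part of these enzymes in catecholamine breakdown was not tested. Among 13 compared, the interval lay above 0 for 3 and below 0 for 5, with a median ratio of -0.058. Of 6 other amine oxidases 5 reached 1 TPM in both mice, and Aoc1 had 0 counts in both. Kdm1a, a histone demethylase of the same flavin enzyme family, averaged 13.4 ± 0.446 TPM and the polyamine oxidase Smox 7.48 ± 1.29 TPM (SD, n = 2 each). Aoc3, a copper amine oxidase of fat and blood vessels, had 12.04 TPM in mouse 2 against 6.58 TPM in mouse 1, a log2 count ratio of 0.76 (0.65 to 0.88), within the range of the fat cell markers. Among the 5 compared oxidases the interval lay above 0 for 2 and below 0 for none, with a median of 0.16.

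The remaining marker lists give the setting of the 7 genes. Of 5 endothelial markers 5 reached 1 TPM in both mice, with a median ratio of 0.063, and of 4 smooth muscle markers 3 did, with a median of -0.26. Of 5 Schwann and sustentacular markers 3 reached it, with a median of 0.11, and of 5 neuron markers 4 did, with a median of -0.069. Of 4 liver markers 1 reached it, and all 4 together summed to 3.58 TPM in mouse 2, against 1.88 in mouse 1. The 7 cortex markers had a median ratio of -0.076 and summed to 22032 TPM in mouse 2 and 20422 TPM in mouse 1. Kidney markers summed to 0.3 TPM in mouse 2 and 0.33 TPM in mouse 1, which stands beside the few counts of Slc22a2.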

How the data were processed

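Total RNA was measured in 2 adrenal libraries of 1 group, from 300 ng of RNA each with ERCC spike-ins, per the labels. Build mm10 and annotation GENCODE M21 are named per the file headers. No aligner or quantifier is given in the sources used here. The authors deposited gene and transcript tables of expected counts, estimated from transcriptome alignments, with TPM, FPKM and the percent of a gene that each transcript takes. They also deposited a further transcript table of estimated counts and TPM, made without alignments. The mm10 reference is not of the CAST strain, and the mapping of CAST alleles was not tested.

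Deposited TPM was averaged over the mice, with its SD. Log2 ratios used expected counts, TMM in edgeR 4.0.16 (R 4.3.3), a prior count of 2 and a mean of at least 10 counts; counts were rounded for the exact binomial interval. The calculation of the ratio was checked on simulated counts with counting noise only. Those counts hold no spread between mice, so the check says nothing of that spread. DESeq2 1.42.0 gave the median-of-ratios size factors of an alternative. Sequences were read with Python 3.11.15 from GENCODE M21 transcripts and RefSeq, and aligned with Biopython 1.88. ERCC rows, at 0.526% of counts in mouse 2 and 0.502% in mouse 1, stayed out of library sizes, as did phiX.

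The members and lists were chosen with earlier results of these data known. The rule for named genes took all 7 members and, of each of 4 context lists, the 3 of highest mean TPM. The context lists are metabolism after the oxidase, other amine oxidases, other carriers, and neighbours in the Igf2r cluster. Marker lists, given as lists, are those of chromaffin cells, cortex, fat, kidney, liver, Schwann cells, endothelium, smooth muscle, neurons, and platelets and mast cells. Family ranks, and the other genes named with values, such as Th, Slc18a1 and Aoc1, were added after the values were seen. Not every enzyme of catecholamine breakdown was analysed here.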

Additional observations from a re-analysis of the deposited data

Results flagged for a closer look

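The phiX row, the sequencing control, is outside every comparison here and held 238 counts in mouse 2 and 354 counts in mouse 1, above the 3 counts that a count of 0 allows. It stayed out of the library sizes, and its counts bear on none of the 7 genes. A group of 2 libraries is too small to look for a sample that stands apart.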

How the results depend on the processing

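The number of genes at 1 TPM or more in both mice, 4 of 7, was 5 in mouse 2 alone and 4 in mouse 1 alone, 5 at a threshold of 0.5 TPM or with TPM scaled to nuclear protein-coding genes, 3 at 5 TPM, and 4 with FPKM or the second quantification. The number at least 2-fold apart was 1 with total count scaling, 1 with the second quantification (Slc22a3 in both) and 1 with no count filter (Slc6a3, on 4 counts in mouse 2 and 0 in mouse 1), against 0. Of all genes, those higher in mouse 2 by 2-fold or more numbered 1346 with no count filter, 28 at a mean of 100 counts and 112 among nuclear protein-coding genes, against 204, and those lower by as much 1310, 37 and 141, against 319, since these settings change which genes enter. None of the 5 log2 ratios changed sign or moved beyond its counting interval under 8 settings, and the largest shift was 0.089. Of 7 mean levels, 2 moved beyond the SD with FPKM, 3 with the second quantification and 7 with nuclear protein-coding scaling. Leading transcript shares moved beyond the SD for 3 of 5 genes with the second quantification. Maoa over Maob ranged on the log2 TPM scale from 0.26 in mouse 1 alone to 0.45 in mouse 2 alone. No paired analysis was possible because the labels give 1 group. Depth limits Slc6a3 and Slc22a2, and 2 libraries limit every SD.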
